A study of Mus musculus with 18 samples.

Results

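The histidine tRNAs with the anticodon GTG (tRNA-His-GTG) and the asparagine tRNAs with the anticodon GTT (tRNA-Asn-GTT) were followed in the hippocampus of WT and 5xFAD mice by Hydro-tRNA-seq. They were chosen by name, as every entry of the count table that starts with either family's name and counts mature tRNA or pre-tRNA reads. This gave 95 of the 2070 tRNA entries in a table of 3574 entries. The 95 entries describe 8 of the 213 mature isodecoders, which are tRNAs that share an anticodon and differ elsewhere. Of these, 3 were tRNA-His-GTG and 5 were tRNA-Asn-GTT. They also describe 21 of the 335 pre-tRNA loci, 10 for histidine and 11 for asparagine. The 8 antisense entries of the 2 families were left out, and all of them held 0 reads.

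Both families carry a guanosine at the first anticodon base, position 34, which the tRNA-guanine transglycosylase made of QTRT1 and QTRT2 exchanges for queuosine in animals. The queuine that it inserts is not made by animals and comes from food and gut bacteria. The aspartate tRNAs tRNA-Asp-GTC and the tyrosine tRNAs tRNA-Tyr-GTA are the other targets of this enzyme in the cytosol, and the mitochondrial tRNAs for the same amino acids (mt-Th, mt-Tn, mt-Td and mt-Ty) are its targets in mitochondria. Histidine tRNAs also receive an extra guanosine at the 5′ end, added by THG1L, which the histidyl-tRNA synthetase recognises. Queuosine itself was not measured, and the values below are numbers of reads.

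The study asked whether silencing of RTP801, a stress-induced protein encoded by Ddit4, changes tRNAs in a mouse model of Alzheimer's disease. All mice were males that received AAVs in both hippocampi at 6 months of age, and their tissue was taken 4 weeks later. The groups were WT shCT (5 mice), WT shRTP801 (4 mice), 5xFAD shCT (3 mice) and 5xFAD shRTP801 (6 mice), and each mouse gave 1 library. WT mice had a B6SJL background, and 5xFAD mice carried human transgenes with familial Alzheimer's disease mutations. The murine Thy-1 promoter, which is active mainly in neurons, drives the transgenes. Every mouse carried an AAV (rAAV2/8) that was directed to neurons, with GFP under an RSV promoter and an shRNA under an H1 promoter, which was a control hairpin in the shCT mice. RNA between 60 and 100 nucleotides was cut from a gel, hydrolysed and read over 50 bases, so that a read covers only a part of a tRNA. Silencing could not be checked here, because the table counts small RNAs and holds no Ddit4 mRNA. Because the hippocampus was sequenced as bulk tissue, fewer cells of a type and less RNA per cell cannot be told apart.

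The libraries held 17961451 to 33930028 reads, of which 9850676 to 20292469 were mature tRNA reads and 47875 to 318628 were pre-tRNA reads. The neuronal tRNA-Arg-TCT-4 was detected in 18 of 18 mice with 61 to 6619 reads. The neuronal snoRNA Snord116 was detected in 15 of 18 mice and the neuronal miRNA gene group Mir124a in 17 of 18, both at low counts. The neuronal snoRNA group Snord115 has no entry in the table and could not be checked. Mitochondrial tRNAs took under 1% of the reads in 3 libraries, and these stood apart from the rest. They were WT shCT mouse 5 at 0.00315%, 5xFAD shRTP801 mouse 7 at 0.0319% and WT shRTP801 mouse 4 at 0.436%, against 8.67% to 40.4% in the other 15. In these 3 libraries mature tRNA took 98.0% to 98.7% of the reads, against 33.5% to 86.3% elsewhere, and none of them was in the 5xFAD shCT group. They also held few reads of named snoRNAs (0.000358% to 0.0350%, against 0.573% to 6.55% in the other 15) and of 5S rRNA (0.0123% to 0.156%, against 0.972% to 13.2%), so their low content was not limited to mitochondrial RNA. They are called the low mt-tRNA libraries below, after the measure that set them apart. Group differences are given with all mice and, a choice made after the data were seen, without these 3.

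Mature tRNA-Asn-GTT varied widely between mice. Its share of mature tRNA reads, which is the scale of all mature values below, was 6.53% in WT shCT mouse 3, 42.7% in mouse 5, 1.77% in mouse 6, 13.9% in mouse 11 and 2.38% in mouse 15. In WT shRTP801 mice it was 31.8% in mouse 4, 1.44% in mouse 10, 2.37% in mouse 17 and 2.06% in mouse 21. In both WT groups 1 mouse stood far above all others. In 5xFAD shCT mice the share was 1.99% in mouse 1, 1.37% in mouse 16 and 2.73% in mouse 18. In 5xFAD shRTP801 mice the lowest share was 1.80%, the median 4.05% and the highest 36.4%. The 3 highest shares of the 18 mice were those of the 3 low mt-tRNA libraries, followed by WT shCT mouse 11, 5xFAD shRTP801 mouse 12 and WT shCT mouse 3. All groups overlapped. The highest share was 31.2 times the lowest, and the coefficient of variation over the 18 mice was 143%, the second of 49 families, whose median was 36.5%. Without the 3 low mt-tRNA libraries these were 10.2 times and 91.4%, rank 6 of 49 with a median of 34.8%. By mean share tRNA-Asn-GTT was the third of 50 families over all mice, and without the 3 low mt-tRNA libraries it held rank 8.

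**Figure D1:**
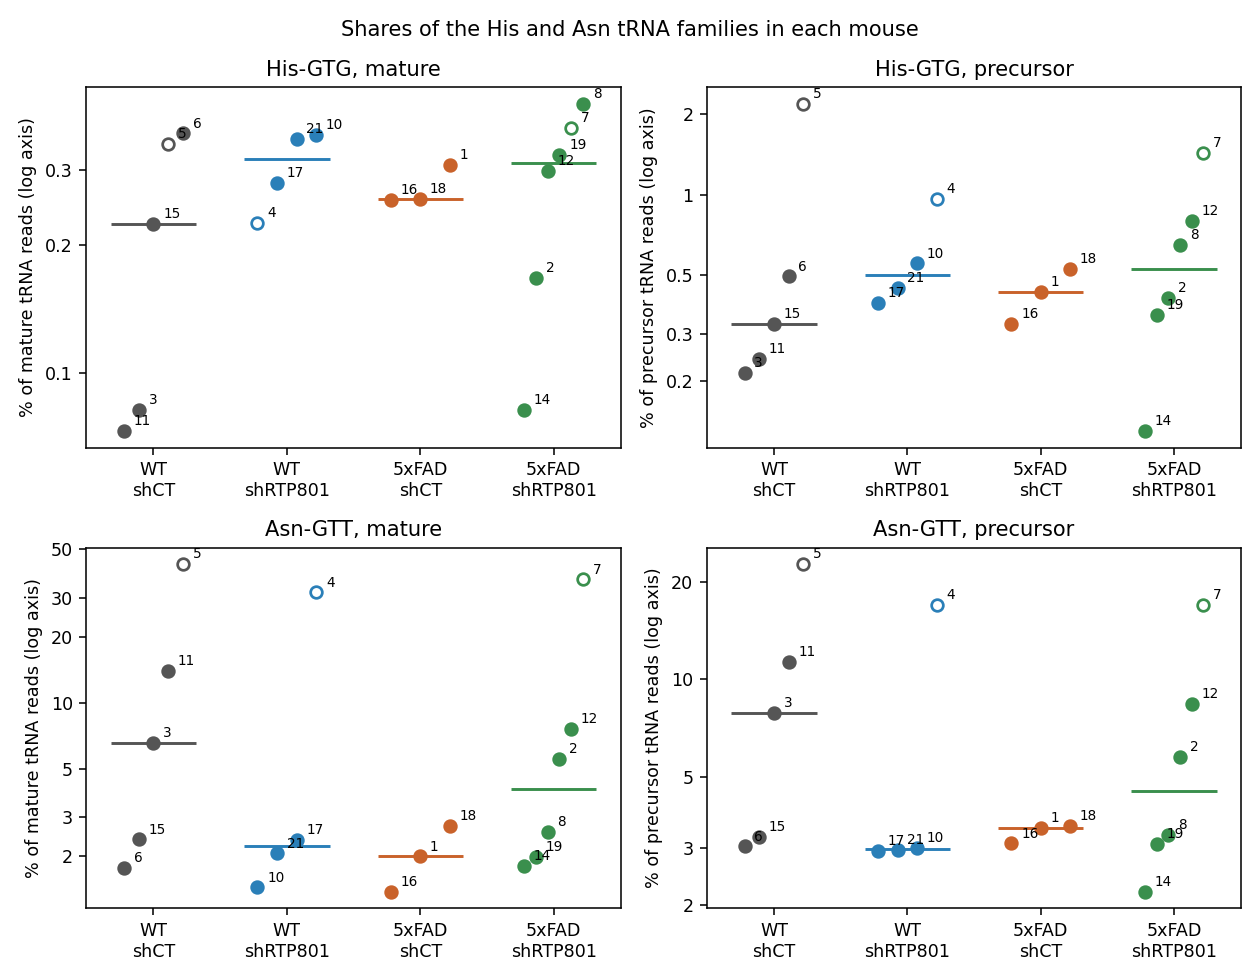
Share of tRNA-Asn-GTT and tRNA-His-GTG among mature tRNA reads and among pre-tRNA reads, in percent on log axes, with 1 dot per mouse, open dots for the 3 low mt-tRNA libraries and a line at the median of each group. The open dots are the highest for mature tRNA-Asn-GTT (31.8% to 42.7%) and lie within the range of the other mice for mature tRNA-His-GTG.

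The asparagine family was almost entirely 1 isodecoder. tRNA-Asn-GTT-3 held 96.7% to 98.7% of the mature asparagine reads in each mouse, tRNA-Asn-GTT-1 held 0.888% to 2.99% and tRNA-Asn-GTT-2 held 0.225% to 0.421%. tRNA-Asn-GTT-4 had 17 to 227 reads in each mouse and tRNA-Asn-GTT-5 had 17 to 1056. tRNA-Asn-GTT-4 was a smaller part of the family in the 3 low mt-tRNA libraries (0.00218% to 0.00337% of its reads) than in most of the others (0.00293% to 0.0275%). tRNA-Asn-GTT-3 rose and fell with the family from 1.34% to 41.7% of all mature tRNA reads. Reads that lie between the ends were similar in number for tRNA-Asn-GTT-1 and tRNA-Asn-GTT-3, with a difference of 4.31% when summed over mice. In single mice the difference had a median of 12.9% and reached 29.6%. The same reads may thus be counted for both, and the level of tRNA-Asn-GTT-1 is uncertain.

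Almost no asparagine read began at the 5′ end of the tRNA. Reads at the 3′ end made up 96.8% to 99.4% of the mature tRNA-Asn-GTT reads of each mouse. The reads at the 5′ end numbered 1 to 32 per library, against 139110 to 8306735 at the 3′ end, and reads over the whole tRNA numbered 1 to 17. Mature asparagine levels are therefore levels of 3′ fragments.

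Mature tRNA-His-GTG was far less abundant and did not follow tRNA-Asn-GTT. Its share was 0.0818% in WT shCT mouse 3, 0.345% in mouse 5, 0.365% in mouse 6, 0.0729% in mouse 11 and 0.224% in mouse 15. In WT shRTP801 mice it was 0.225% in mouse 4, 0.362% in mouse 10, 0.279% in mouse 17 and 0.355% in mouse 21. WT shCT mice 3 and 11 were low here and had more tRNA-Asn-GTT than most mice. In 5xFAD shCT mice the share was 0.307% in mouse 1, 0.255% in mouse 16 and 0.257% in mouse 18. In 5xFAD shRTP801 mice the lowest share was 0.0818%, the median 0.311% and the highest 0.429%. The groups overlapped, and the 3 low mt-tRNA libraries, at 0.225% to 0.376%, lay within the range of the others. The highest share was 5.88 times the lowest, the coefficient of variation was 40.3%, and the family held rank 29 of 50 by mean share. Counting error was small beside this spread, since the lowest share, in WT shCT mouse 11, had a Wilson 95% interval of 0.0716% to 0.0742%. Per library there were 3.97 (WT shRTP801 mouse 10) to 191 (WT shCT mouse 11) mature asparagine reads for each mature histidine read.

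The histidine reads came from 2 main isodecoders. tRNA-His-GTG-2 held 60.9% to 78.6% of them, tRNA-His-GTG-3 held 21.05% to 38.4% and tRNA-His-GTG-1 held 0.349% to 0.967%. The 3′ end counts of tRNA-His-GTG-2 and tRNA-His-GTG-3 differed by 13.2% when summed over mice, so reads may be shared between them and the split is uncertain. Unlike asparagine, histidine was read from both ends. Reads at the 5′ end made up 7.24% to 27.3% of the mature tRNA-His-GTG reads and those at the 3′ end 45.8% to 76.9%. In the 3 low mt-tRNA libraries 21.6% to 27.3% began at the 5′ end and 1.03% to 2.08% lay between the ends, against 7.24% to 24.6% and 11.02% to 46.0% in the other 15. The kind of fragment thus differed between these libraries although the total share of tRNA-His-GTG did not stand apart.

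**Figure D2:**
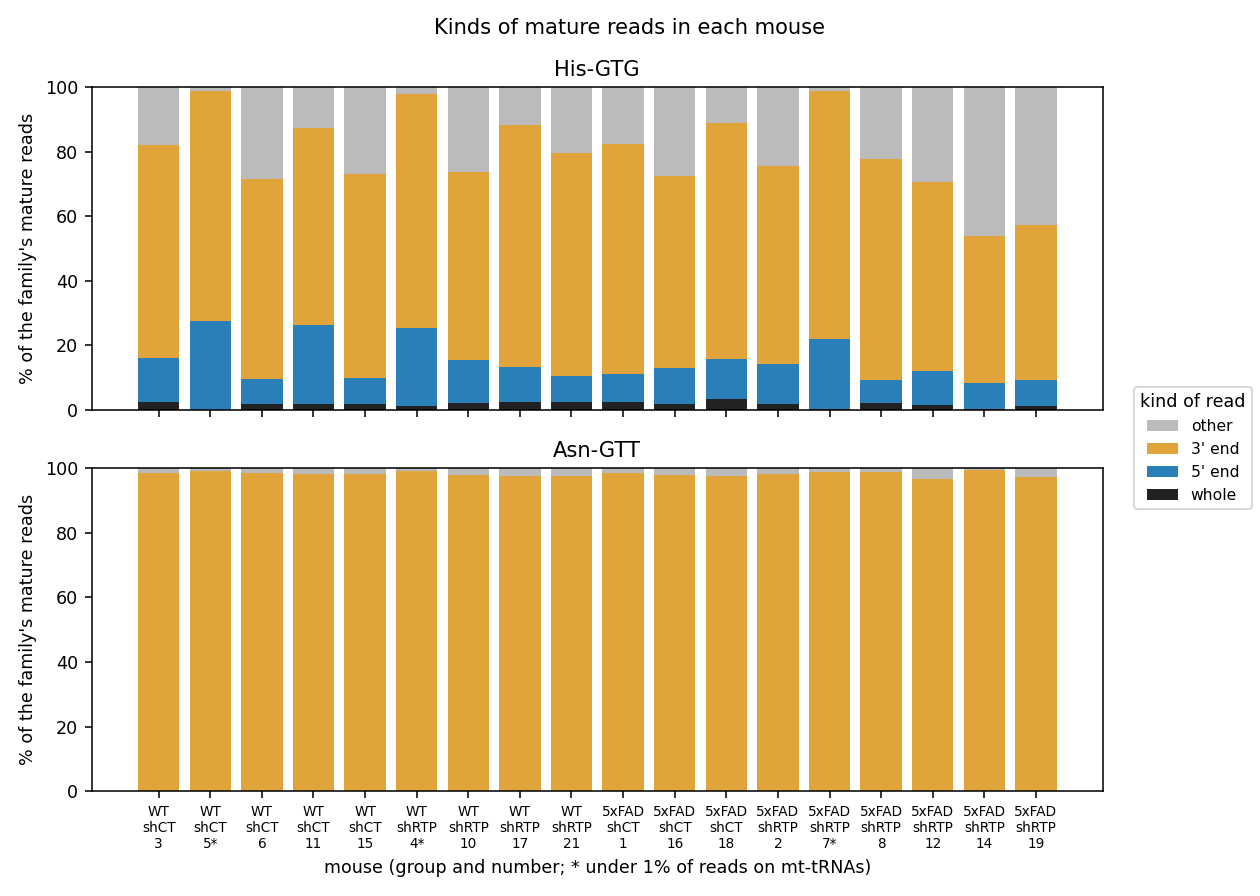
Make-up of the mature tRNA-His-GTG and tRNA-Asn-GTT reads of each mouse by read kind (whole tRNA, 5′ end, 3′ end, other), as stacked bars in percent of the family's mature reads, with low mt-tRNA libraries starred. Asparagine bars are 96.8% or more 3′ reads, and histidine bars hold 7.24% to 27.3% 5′ reads.

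Pre-tRNA reads of both families were high in the low mt-tRNA libraries. The share of tRNA-Asn-GTT among pre-tRNA reads, the scale of all precursor values, was 7.86% in WT shCT mouse 3, 22.7% in mouse 5, 3.04% in mouse 6, 11.3% in mouse 11 and 3.25% in mouse 15. In WT shRTP801 mice it was 17.0% in mouse 4 and 2.95% to 3.01% in the other 3. The 3 5xFAD shCT mice lay between 3.11% and 3.53%, and 5xFAD shRTP801 mice had 2.20% as the lowest, 4.52% as the median and 17.0% as the highest share. The order of the mice resembled that of the mature family, with the same mice on top, and the groups overlapped. For tRNA-His-GTG the precursor share was 2.19% in WT shCT mouse 5 and 0.215% to 0.494% in the other 4 WT shCT mice. In WT shRTP801 mice it was 0.963% in mouse 4 and 0.393% to 0.553% in the other 3. In 5xFAD shCT mice it was 0.432%, 0.329% and 0.528%, and in 5xFAD shRTP801 mice the lowest was 0.130%, the median 0.528% and the highest 1.43%. Histidine precursors thus were highest in the same 3 libraries as asparagine, which their mature form was not.

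The loci behind these precursors differed in their share of the family. The most read asparagine loci were tRNA-Asn-GTT-3-2, tRNA-Asn-GTT-3-7 and tRNA-Asn-GTT-3-8, which held medians of 19.99%, 16.9% and 13.9% of the asparagine precursor reads. The most read histidine loci by mean share over all mice were tRNA-His-GTG-2-6, tRNA-His-GTG-2-5 and tRNA-His-GTG-2-1, with medians of 15.6%, 13.9% and 15.2% of the histidine precursor reads. Without the low mt-tRNA libraries tRNA-His-GTG-2-1 had the highest median share of pre-tRNA reads (0.0649%). It was followed by tRNA-His-GTG-2-6 (0.0620%) and tRNA-His-GTG-2-5 (0.0573%). tRNA-His-GTG-1-1 had 0 to 7 reads per mouse. The make-up of both families was not the same in the low mt-tRNA libraries. tRNA-His-GTG-2-5 held 19.5% to 20.6% of the histidine precursor reads there and 9.88% to 18.4% in the other 15. tRNA-Asn-GTT-3-6 held 12.8% to 15.3% of the asparagine precursor reads there and 2.34% to 11.3% in the other 15. tRNA-Asn-GTT-3-3 held 6.60% to 9.20% there and 1.63% to 4.70% elsewhere. tRNA-Asn-GTT-3-4 moved the other way, with 7.66% to 9.21% there and 9.37% to 20.02% elsewhere. Almost all of these were partial pre-tRNA reads, at least 99.6% of the asparagine and 93.0% of the histidine precursor reads, and some loci had near-equal counts that may be shared reads, such as tRNA-His-GTG-2-6 and tRNA-His-GTG-2-5 (summed difference 2.87%) and tRNA-Asn-GTT-3-5 and tRNA-Asn-GTT-3-4 (6.72%).

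In the mouse RefSeq annotation (GRCm38.p6, used for names only because the files were made on mm39), 10 genes were annotated as tRNA-His-GTG and 13 as tRNA-Asn-GTT. The histidine genes were 72 bases long and lay on 3 chromosomes, and the asparagine genes were 74 bases long and lay on 7. On chromosome 3 there were 6 genes of each family. In 5 places a gene of each family stood side by side with no other tRNA gene between.

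**Figure D3:**
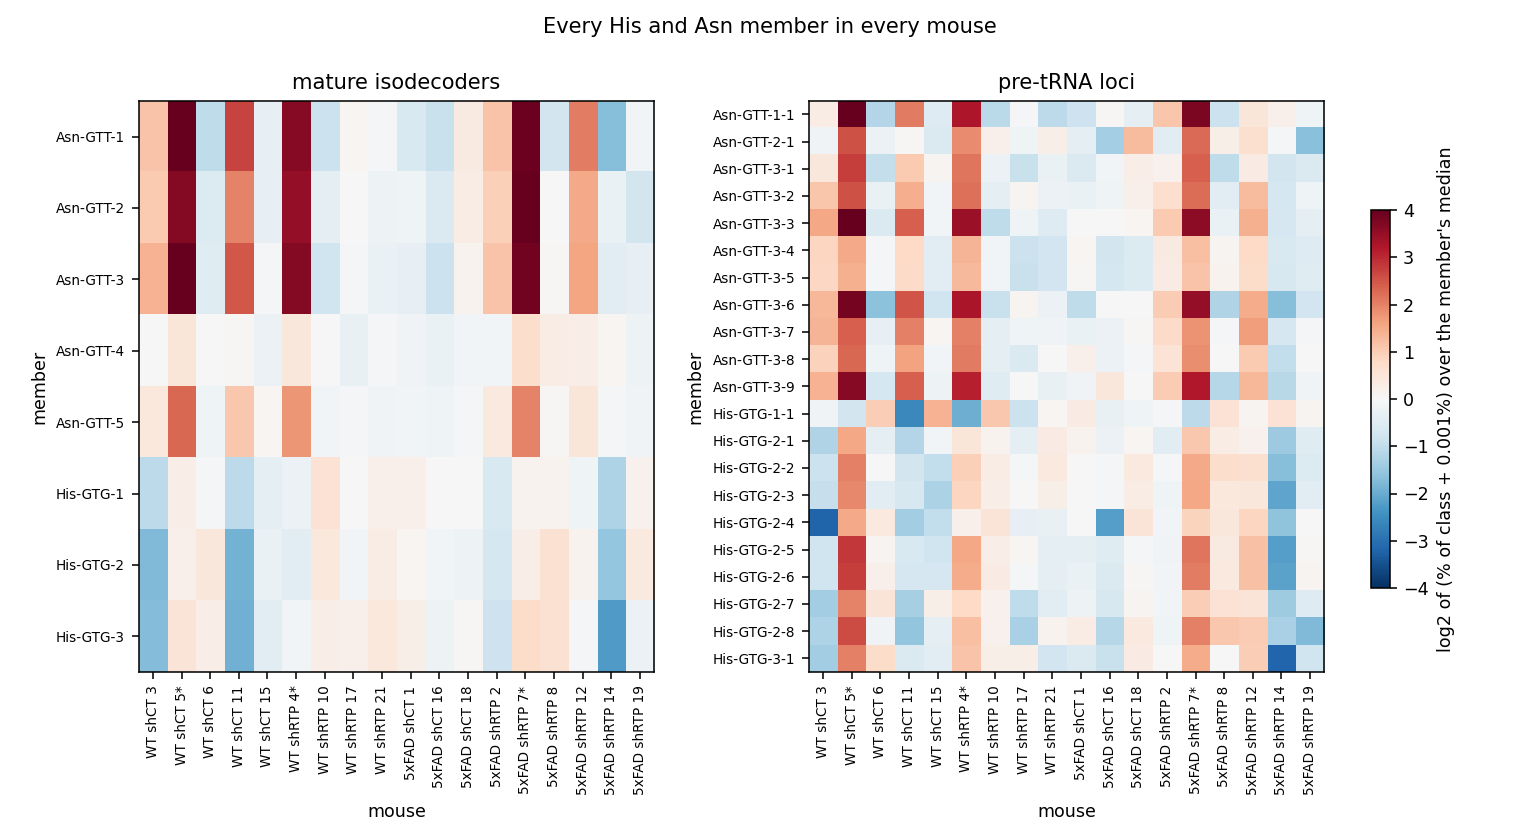
Heat map of every mature isodecoder and pre-tRNA locus of the 2 families in every mouse, as the log2 of its percentage of the class (plus 0.001%) relative to the member's own median over mice, with colours limited at ±4 log2. The low mt-tRNA libraries are high for the asparagine isodecoders and for most loci of both families, and not for the histidine isodecoders.

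Counting members shows the same split. All 3 low mt-tRNA libraries lay above the other 15 for tRNA-Asn-GTT-1, tRNA-Asn-GTT-2 and tRNA-Asn-GTT-3 and for 0 of the 3 histidine isodecoders. This also held for tRNA-Asn-GTT-5, which passed the filter only through these 3 libraries and so adds nothing. Its mean share was 0.00108% over all mice, and its median was 0.000243% in the other 15. Among all 186 isodecoders tested, 11.3% did so. Among loci this held for 10 of 11 asparagine loci, all but tRNA-Asn-GTT-3-7, and for 8 of 10 histidine loci, all but tRNA-His-GTG-1-1 and tRNA-His-GTG-2-4, against 13.8% of the 333 loci tested. By family it held for 10.2% of mature families, with tRNA-Asn-GTT and without tRNA-His-GTG among them, and for 12.5% of precursor families, both included. Since these libraries were set apart by their values, no test was made on these counts. tRNA-Asn-GTT-4 is not among the isodecoders tested, as its mean share was 0.000455%, under the limit of 0.001%, and the other 7 isodecoders and all 21 loci passed.

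Within the other 15 libraries the relation to mitochondrial tRNA was negative for asparagine and weaker for histidine, with no adjusted p under 0.05. Over these 15, mature tRNA-Asn-GTT (log2 share) and the log2 share of mt-tRNA reads had a Pearson r of -0.50 (p = 0.0531) and a Spearman rho of -0.30 (p = 0.273, permutation tests with 100000 resamples). The adjusted p of r over the 4 relations computed was 0.139. For tRNA-Asn-GTT precursors r was -0.47 (permutation p = 0.0693), for mature tRNA-His-GTG 0.09 (permutation p = 0.742) and for its precursors -0.19 (permutation p = 0.507). Without the 2 mice farthest from the median mt-tRNA share, r was -0.52, -0.50, 0.55 and 0.44 in that order, so neither histidine value is stable.

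Precursors and mature forms differed in how they scaled. For each 100 mature reads there were 0.427 to 1.09 asparagine precursor reads, and the 3 low mt-tRNA libraries lay within this range at 0.539, 0.620 and 0.805. For histidine there were 0.489 to 7.42, highest in WT shCT mouse 5 (7.42), 5xFAD shRTP801 mouse 7 (6.57), WT shRTP801 mouse 4 (4.32) and WT shCT mouse 11 (2.53), with at most 1.45 in the rest. Over all families together the ratio was also highest in these 3 libraries, at 1.17 in WT shCT mouse 5, 1.72 in 5xFAD shRTP801 mouse 7 and 1.01 in WT shRTP801 mouse 4, against 0.355 to 0.762 in the other 15.

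**Figure D4:**
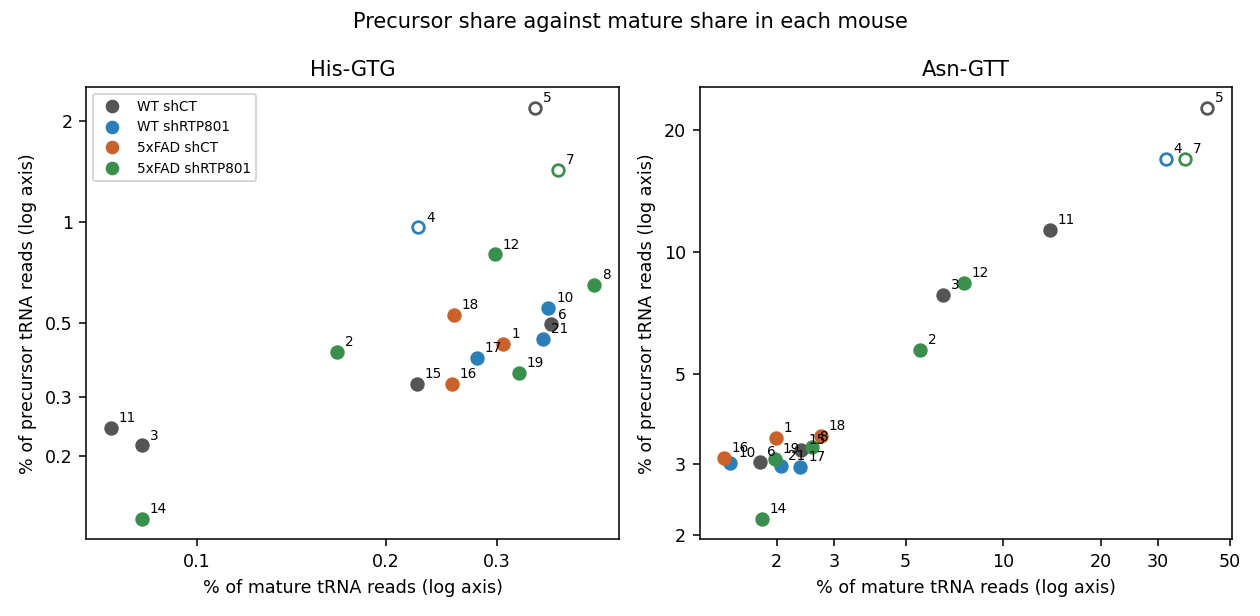
Precursor share (percent of pre-tRNA reads) against mature share (percent of mature tRNA reads) of both families on log axes, with 1 point per mouse marked by its number, coloured by group, and open points for the 3 low mt-tRNA libraries. For tRNA-Asn-GTT the points rise along both axes from 1.37% to 42.7% mature, and for tRNA-His-GTG the 3 low mt-tRNA libraries lie above the other mice at like mature shares.

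Genotype was compared first, as 5xFAD shCT against WT shCT. Mature tRNA-Asn-GTT averaged 13.5 ± 17.1% over the WT shCT group (SD, n = 5) and 2.03 ± 0.683% over the 5xFAD shCT group (SD, n = 3), a difference of -11.4 percentage points (exact two-sided permutation p = 0.286). Mature tRNA-His-GTG averaged 0.218 ± 0.139% and 0.273 ± 0.0298% in the same order, a difference of 0.0551 points (exact p = 0.536). Precursor differences were -6.27 points for tRNA-Asn-GTT (exact p = 0.357) and -0.265 for tRNA-His-GTG (exact p = 0.946). None was larger than the SD of WT shCT, which was 8.08 points for asparagine and 0.845 for histidine precursors. Each was larger than the SD of 5xFAD shCT, which was 0.230 and 0.0998 points for these precursors. Without the low mt-tRNA library of this comparison, WT shCT mouse 5, the differences were -4.12 points for mature tRNA-Asn-GTT, 0.0869 for mature tRNA-His-GTG, -3.00 for asparagine precursors and 0.110 for histidine precursors, so that the last one changed sign.

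limma, fitted on all features of a class, gave log2 differences of -1.83 ± 1.16 (SE, adjusted p = 0.501) for mature tRNA-Asn-GTT and 0.62 ± 0.57 (adjusted p = 0.651) for mature tRNA-His-GTG. For precursors they were -1.11 ± 0.76 (adjusted p = 0.359) and -0.09 ± 0.73 (adjusted p = 0.937). At an adjusted p under 0.05, 0 of 2 families were called in either class, against 0% of all families. At an unadjusted p under 0.05 it was also 0 of 2, against 4.08% of mature families and 12.5% of precursor families. Among the isodecoders, 3 of 3 histidine values were positive and 4 of 4 asparagine values negative, with 0 of 7 below an unadjusted p of 0.05, against 5.38% of the isodecoders tested. tRNA-Asn-GTT-5, among the 4, passed the filter only through the 3 low mt-tRNA libraries, none of which was in 5xFAD shCT. Its sign in a comparison with 5xFAD shCT therefore adds nothing. It is included in all counts and medians over the 7 isodecoders, here and below. The median over the 7 was -0.85, and 0.31 over all isodecoders. Among the loci, 11 of 11 asparagine values were negative (median -1.03) and 5 of 10 histidine values positive. None of the 21 had an unadjusted p under 0.05, against 15.6% of all loci tested. These signs depend on the scaling, since 1 of 7 isodecoders and 0 of 21 loci were positive with the deposited scaling, where the medians over all isodecoders and all loci were -0.42 and -0.90. edgeR and DESeq2 on the recovered reads gave larger log2 differences for mature tRNA-Asn-GTT, -3.15 (unadjusted p = 0.0433, adjusted p = 0.53) and -2.92 (unadjusted p = 0.00891, adjusted p = 0.436). It was among the 8.16% of mature families with an unadjusted p under 0.05 in each tool. Asparagine precursors had such a p in DESeq2 (-1.56, adjusted p = 0.238), with 16.7% of precursor families, and not in edgeR, with 10.4%. In edgeR 1 of 7 isodecoders (3.23% of all) and 2 of 21 loci (14.7% of all) had such a p, and in DESeq2 4 of 7 (6.45% of all) and 5 of 21 (16.5% of all). Without WT shCT mouse 5 and the other 2 low mt-tRNA libraries, the limma differences were -1.18 and 0.86 for mature asparagine and histidine and -0.69 and 0.48 for their precursors (adjusted p = 0.541, 0.569, 0.387 and 0.541).

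Silencing of RTP801 in 5xFAD mice was compared as 5xFAD shRTP801 against 5xFAD shCT, which shares its control mice with the previous comparison. Mature tRNA-Asn-GTT averaged 9.32 ± 13.5% (SD, n = 6) after silencing, 7.28 points above 5xFAD shCT (exact p = 0.452). Mature tRNA-His-GTG averaged 0.279 ± 0.131%, a difference of 0.00648 points (exact p = 0.964). Precursor differences were 3.25 points for tRNA-Asn-GTT (exact p = 0.5) and 0.199 for tRNA-His-GTG (exact p = 0.56). Without 5xFAD shRTP801 mouse 7, the differences for mature and precursor tRNA-Asn-GTT were 1.86 and 1.18 points, and those for tRNA-His-GTG were -0.0128 and 0.0382. The higher asparagine mean after silencing therefore rested largely on this mouse.

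In limma the log2 differences were 1.33 ± 1.13 (SE, adjusted p = 0.949) for mature tRNA-Asn-GTT, -0.15 ± 0.55 (adjusted p = 0.949) for mature tRNA-His-GTG, 0.61 ± 0.73 (adjusted p = 0.713) for asparagine precursors and 0.22 ± 0.71 (adjusted p = 0.867) for histidine precursors. Called were 0 of 2 families in either class, against 0% of all, and at an unadjusted p under 0.05 0 of 2, against 2.04% of mature and 4.17% of precursor families. All 4 asparagine isodecoders had positive and all 3 histidine isodecoders negative values, with a median over the 7 of 0.56 against -0.22 over all, and 0 of 7 had an unadjusted p under 0.05, against 1.08% of all. Among the 4, tRNA-Asn-GTT-5 again adds nothing, as it passed the filter only through the low mt-tRNA libraries. Values of 11 of 11 asparagine loci (median 0.60) and 7 of 10 histidine loci were positive, and none of the 21 had an unadjusted p under 0.05, against 7.51% of all loci. Positive values were found for 6 of 7 isodecoders and 21 of 21 loci with the deposited scaling, where the medians over all features were 0.29 and 0.66. In DESeq2 mature tRNA-Asn-GTT differed by 2.31 (unadjusted p = 0.0326, adjusted p = 0.746), among 6.12% of mature families with such a p, and its precursors were not among the 12.5% of precursor families. In DESeq2 4 of 7 isodecoders (4.3% of all) and 0 of 21 loci (8.11% of all) had an unadjusted p under 0.05. In edgeR mature tRNA-Asn-GTT differed by 2.43 (adjusted p = 0.911), with 0 of 7 isodecoders (1.08% of all), 0 of 21 loci (9.31% of all) and neither family, mature (0% of all) or precursor (8.33% of all). Without the 3 low mt-tRNA libraries, the limma differences were 0.75 and -0.28 for mature asparagine and histidine and 0.27 and -0.09 for their precursors (adjusted p = 0.804, 0.91, 0.765 and 0.969).

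In WT mice, WT shRTP801 was compared with WT shCT, which again shares WT shCT with the genotype comparison. Mature tRNA-Asn-GTT averaged 9.41 ± 14.9% (SD, n = 4) in WT shRTP801 mice, a difference of -4.06 points from WT shCT (exact p = 0.595). Mature tRNA-His-GTG averaged 0.305 ± 0.0656%, 0.0876 points above WT shCT (exact p = 0.278). Precursor differences were -3.16 points for tRNA-Asn-GTT (exact p = 0.563) and -0.106 for tRNA-His-GTG (exact p = 0.984). Each group held 1 low mt-tRNA library. Without both, the differences were -4.20, 0.146, -3.39 and 0.144 points in the same order. Without WT shCT mouse 5 alone, the asparagine differences turned to 3.26 points for mature tRNA and 0.110 for precursors.

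In limma the log2 differences were -0.85 ± 1.07 (SE, adjusted p = 0.813) for mature tRNA-Asn-GTT, 0.76 ± 0.53 (adjusted p = 0.596) for mature tRNA-His-GTG, -0.66 ± 0.69 (adjusted p = 0.593) for asparagine precursors and 0.29 ± 0.67 (adjusted p = 0.844) for histidine precursors. Called were 0 of 2 families in either class, against 0% of all, and at an unadjusted p under 0.05 0 of 2, against 12.2% of mature and 4.17% of precursor families. Values were negative for 4 of 4 asparagine isodecoders and positive for 3 of 3 histidine isodecoders, with 0 of 7 below an unadjusted p of 0.05, against 10.8% of all. The 4 include tRNA-Asn-GTT-5, which passed the filter only through the low mt-tRNA libraries. Among loci, 10 of 11 asparagine values were negative (median -0.62) and 8 of 10 histidine values positive, with none of the 21 below an unadjusted p of 0.05, against 10.2% of all. In edgeR 0 of the 21 loci and in DESeq2 2 had positive values. An unadjusted p under 0.05 was found for 0 of 7 isodecoders in edgeR (8.06% of all) and DESeq2 (9.14% of all), for 0 of 21 loci (7.51% and 10.2% of all) and for neither family (10.2% and 12.2% of mature, 4.17% and 6.25% of precursor families). Without the 3 low mt-tRNA libraries, the limma differences were -1.21 and 1.14 for mature asparagine and histidine and -0.87 and 0.60 for their precursors (adjusted p = 0.318, 0.295, 0.214 and 0.338). Across the 3 comparisons no member was called at an adjusted p under 0.05 by limma, edgeR or DESeq2. Without the 3 low mt-tRNA libraries, 11, 13 and 11 of the 21 loci had positive values in the 3 comparisons, with medians of 0.05, 0.14 and 0.06.

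The interaction asked whether silencing acted differently in 5xFAD and WT mice. Its exact p came from permuting the shRNA labels within each genotype. It thus refers to no effect of silencing in either genotype, which is narrower than an equal effect in both. On the log2 share it was 2.18 for mature tRNA-Asn-GTT (exact p = 0.188), 1.27 for its precursors (exact p = 0.234), -0.92 for mature tRNA-His-GTG (exact p = 0.26) and -0.08 for its precursors (exact p = 0.938). The lowest adjusted p of the 4 was 0.347. Without the 3 low mt-tRNA libraries these were 1.96 (exact p = 0.0699), 1.14 (exact p = 0.156), -1.43 (exact p = 0.144) and -0.69 (exact p = 0.354). Over all 21 exact tests of group differences, the groups overlapped and no adjusted p was below 0.731. The smallest p these designs allow is 0.01786 for genotype, 0.0119 for silencing in 5xFAD mice and 0.007937 for silencing in WT mice.

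Measures within the families had no adjusted p under 0.05 either. The 5′ share among histidine end reads averaged 19.2 ± 8.63% (SD) for WT shCT and 13.8 ± 2.52% for 5xFAD shCT, and with silencing it averaged 16.8 ± 6.48% for WT shRTP801 and 15.5 ± 3.99% for 5xFAD shRTP801 (exact p = 0.339 for genotype, 0.548 for silencing in 5xFAD and 0.627 in WT). For asparagine this share was at most 0.0184% in any mouse (exact p = 0.0893, 0.0714 and 0.159). Without the 3 low mt-tRNA libraries the 3 differences were -3.32, 0.416 and -3.07 points for histidine (exact p = 0.686, 0.875 and 0.714) and 0.00661, -0.00613 and 0.00986 points for asparagine (exact p = 0.2, 0.125 and 0.0857). The log2 ratio of mature histidine to asparagine reads averaged -5.31 ± 2.33 (SD) for WT shCT and -2.85 ± 0.51 for 5xFAD shCT, and with silencing -3.69 ± 2.35 for WT shRTP801 and -4.33 ± 1.54 for 5xFAD shRTP801. The differences were 2.46 for genotype (exact p = 0.179), -1.48 for silencing in 5xFAD mice (exact p = 0.155) and 1.62 in WT mice (exact p = 0.325), and without the 3 libraries 2.05, -1.03 and 2.36 (exact p = 0.343, 0.214 and 0.229). The log2 ratio of precursor to mature reads in limma differed by 0.52 ± 0.39 (SE, adjusted p = 0.517), -0.43 ± 0.38 (adjusted p = 0.666) and 0.54 ± 0.36 (adjusted p = 0.996) for asparagine in the 3 comparisons. For genotype the asparagine ratios did not overlap, at -7.06 to -6.81 in 5xFAD shCT and -7.87 to -7.33 in WT shCT mice. In both silencing comparisons they overlapped with all mice. Without the 3 libraries WT shRTP801 mice (-7.04 to -6.52) also lay above WT shCT mice. Overlap of this ratio was not counted over the other families. For histidine the differences were -0.93 ± 0.89 (adjusted p = 0.534), 0.66 ± 0.86 (adjusted p = 0.737) and -0.13 ± 0.82 (adjusted p = 0.996). Without the 3 libraries they were 0.55, -0.51 and 0.78 for asparagine (adjusted p = 0.521, 0.425 and 0.856) and -0.33, 0.16 and -0.11 for histidine (adjusted p = 0.806, 0.915 and 0.954), so that the first and second histidine values were smaller without them. Of the 48 families with this ratio, 6.25%, 4.17% and 0% had an unadjusted p under 0.05, and neither family was among them.

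The other queuosine targets were not called by limma either, but some had an unadjusted p under 0.05, which neither member family had in limma. Mature tRNA-Asp-GTC had log2 differences of 1.87 ± 0.76 (SE, adjusted p = 0.501) for genotype, -0.92 ± 0.73 (adjusted p = 0.949) for silencing in 5xFAD mice and 1.99 ± 0.69 (adjusted p = 0.228) in WT mice, and its precursors 1.68 ± 0.71, -0.46 ± 0.69 and 1.66 ± 0.65 (adjusted p = 0.312, 0.768 and 0.388). Mature tRNA-Tyr-GTA differed by 0.21, -0.20 and 0.05 (adjusted p of at least 0.739). Precursors of tRNA-Tyr-GTA, whose genes have an intron, differed by 2.03 ± 0.64 (adjusted p = 0.284), -2.04 ± 0.62 (adjusted p = 0.218) and 0.19 ± 0.59 (adjusted p = 0.878). In limma the unadjusted p of mature tRNA-Asp-GTC was 0.0246 for genotype and 0.0109 for silencing in WT mice. For its precursors it was 0.0303 and 0.0210. Precursors of tRNA-Tyr-GTA had 0.00592 for genotype and 0.00454 for silencing in 5xFAD mice, the lowest of the 48 families in both. An unadjusted p under 0.05 was found for 4.08%, 2.04% and 12.2% of mature and 12.5%, 4.17% and 4.17% of precursor families. Among mitochondrial tRNAs, the histidine tRNA mt-Th took 30.9% to 69.8% of mt-tRNA reads and the asparagine tRNA mt-Tn 0.116% to 3.68%, the reverse of the order in the cytosol. The tRNAs for aspartate and tyrosine, mt-Td and mt-Ty, took 0% to 0.845% and 0.416% to 4.75%. The low ends came from the low mt-tRNA libraries, which had 624 to 79078 mt-tRNA reads, and without them the shares began at 36.7% for mt-Th, 0.365% for mt-Tn, 0.150% for mt-Td and 0.485% for mt-Ty. limma called 0 of the 22 mt-tRNAs in each comparison, with 4.55% at an unadjusted p under 0.05. edgeR called 1 mt-tRNA (4.55%) in each of the first and second comparisons, mt-Th, at a log2 difference of 0.94 for genotype (adjusted p = 0.0178) and -1.05 for silencing in 5xFAD mice (adjusted p = 0.00349). limma gave 0.18 ± 0.31 (SE, adjusted p = 0.892) and -0.33 ± 0.30 (adjusted p = 0.851), and DESeq2 0.47 (adjusted p = 0.936) and -0.78 (adjusted p = 0.654).

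**Figure D5:**
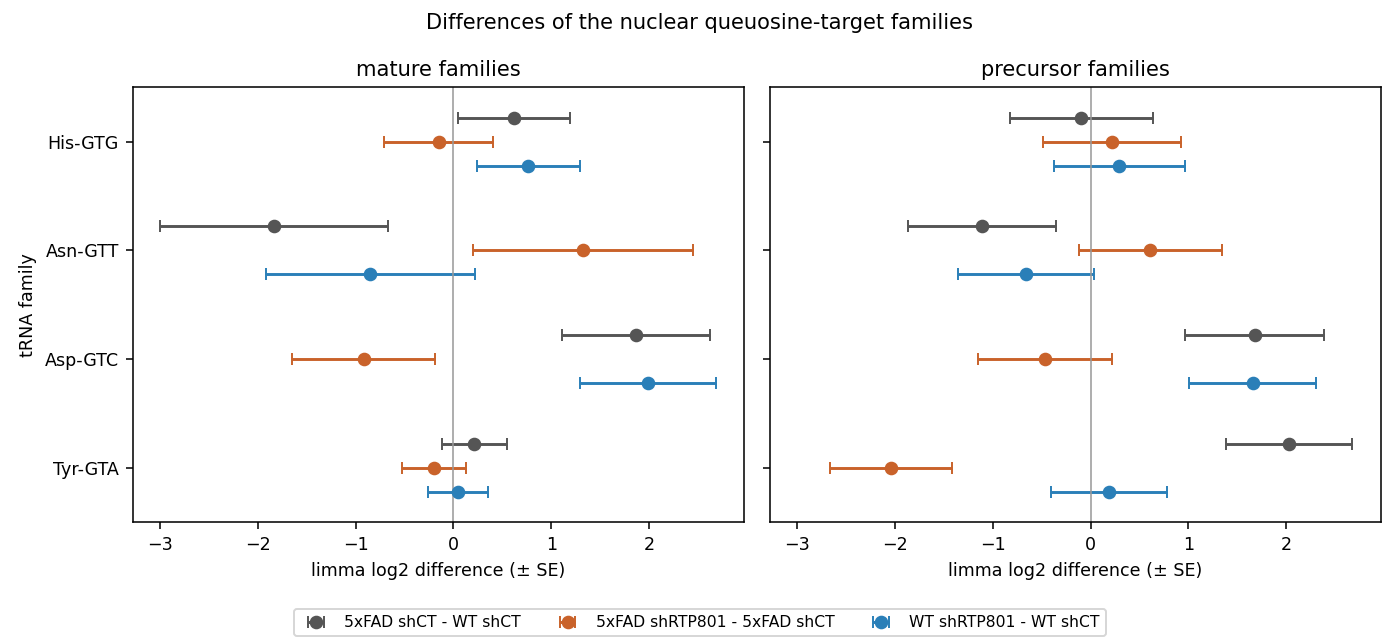
log2 differences ± SE from limma for the 4 queuosine target families, mature and precursor, in the 3 comparisons, with a line at 0. The SE of tRNA-His-GTG and tRNA-Asn-GTT runs from 0.53 to 1.16, and none of the values drawn has an adjusted p under 0.05.

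Families whose log2 shares ran most like those of the members were found by Pearson's r over the 18 mice, as a description, since the shares of a library sum to 100%. Mature tRNA-His-GTG ran most like tRNA-Leu-TAG (r = 0.96), tRNA-Leu-AAG (0.91) and the queuosine target tRNA-Asp-GTC (0.87). Over the 15 libraries without low mt-tRNA these were 0.97, 0.91 and 0.87. There tRNA-Asp-GTC ranked 5 of 48 and was no longer among the 3 nearest. Mature tRNA-Asn-GTT ran most like tRNA-Arg-TCG (0.94), tRNA-Arg-TCT (0.92) and tRNA-Gly-ACC (0.87), and over the 15 libraries at 0.89, 0.88 and 0.76 (the last at rank 4 of 48). No queuosine target was among its 3 nearest over the 18 mice. Histidine precursors were nearest to those of tRNA-Leu-AAG (0.88), tRNA-Leu-TAG (0.75) and tRNA-Glu-TTC (0.67), of which the last was at -0.28 over the 15 libraries. Asparagine precursors were nearest to those of tRNA-Val-AAC (0.97), tRNA-Phe-GAA (0.95) and tRNA-Thr-TGT (0.88), and over the 15 libraries at 0.92, 0.89 and 0.81 (the last at rank 5 of 47).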

How the data were processed

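Per the labels and methods, the authors made 18 Hydro-tRNA-seq libraries and counted reads per mature tRNA, pre-tRNA locus and other small RNA with tRAX. The submitters' processing notes name the build mm39. The aligner and versions are not given in the sources used here. The deposited values are a normalized signal, that is, read counts that the authors divided by a size factor of each library. Each value was a whole multiple, within 0.001 reads, of what 1 read is worth in its library, so reads were recovered by division. Of the columns, 0 could not be mapped to a sample. Near-identical entries (329, within 5%) of other small RNAs were counted once in a library's total.

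Mature shares are percentages of the mature tRNA reads and precursor shares of the pre-tRNA reads. Intervals of single mice are Wilson 95% intervals, which cover counting error only. Differences between mean shares were tested with exact permutations of the mice (two-sided, counting absolute differences at least as large). All features of a class with a mean of at least 0.001% were compared with limma 3.58.1 (R 4.3.3) on log2(percentage + 0.001%), fitted over the 4 groups, and p-values were adjusted after Benjamini and Hochberg (threshold 0.05). Such log2 differences understate those of low features. The precursor to mature ratio used reads plus 0.5. The test scripts were tested on simulated data. edgeR 4.0.16 and DESeq2 1.42.0 on the recovered reads were alternatives. Further alternatives changed the pseudocount, the filter, the denominator or the read kinds, centred each library on its median, used the deposited scaling or left out each mouse. The scripts ran under Python 3.11.15 (scipy 1.17.1, pandas 2.3.3, numpy 2.4.6, matplotlib 3.10.9).

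The text names both families in every comparison, the 3 members of each family and class with the highest mean share, the 3 families nearest to each by Pearson's r, the other queuosine targets, and any member past the threshold, of which there were none. Other members were named after their values were seen. The families and lists were chosen with earlier results of these data known. Each mouse is a separate animal, and cage or litter is not in the labels.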

Additional observations from a re-analysis of the deposited data

Results flagged for a closer look

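In 87 groups of 4 to 6 mice, the highest or lowest mouse was compared with the rest of its group by Dixon's gap, which flags about 1 in 20 groups by chance. It marked 23 values, of which 19 belong to the 3 low mt-tRNA libraries. The 87 groups are not independent, since families, their members and their ratios share reads and mice. The same excess in 1 mouse can therefore be marked several times. WT shCT mouse 5 was the highest of its group for tRNA-His-GTG precursors (2.19% of pre-tRNA reads), the loci tRNA-His-GTG-2-1 (0.223%), tRNA-His-GTG-2-5 (0.452%) and tRNA-His-GTG-2-6 (0.462%), and mature tRNA-Asn-GTT-2 (0.115% of mature reads). WT shRTP801 mouse 4 was the highest for mature tRNA-Asn-GTT (31.8%) and its isodecoders tRNA-Asn-GTT-1 (0.682%), tRNA-Asn-GTT-2 (0.104%) and tRNA-Asn-GTT-3 (31.0%). It was also the highest for tRNA-Asn-GTT precursors (17.0%), the loci tRNA-Asn-GTT-3-2 (3.29%), tRNA-Asn-GTT-3-7 (2.35%) and tRNA-Asn-GTT-3-8 (2.21%), and the log2 precursor to mature ratio of histidine (-4.53). 5xFAD shRTP801 mouse 7 was the highest for mature tRNA-Asn-GTT (36.4%), its isodecoders tRNA-Asn-GTT-1 (0.843%), tRNA-Asn-GTT-2 (0.143%) and tRNA-Asn-GTT-3 (35.5%), and the log2 precursor to mature ratio of histidine (-3.93).

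The other 4 values belong to other mice. WT shCT mouse 3 had the lowest log2 precursor to mature ratio of asparagine in its group (-7.87). WT shCT mouse 15 had the highest share of tRNA-Tyr-GTA precursors (0.764%). mt-Ty was highest in WT shCT mouse 6 (2.79% of mt-tRNA reads) and in 5xFAD shRTP801 mouse 8 (4.75%).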

How the results depend on the processing

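Of 681 values under the alternatives, 641 stayed the same. For a difference this means that it kept its direction and side of the threshold. For numbers of limma calls it means only that the number stayed at 0. Such numbers made up 127 of the 641 when a mouse was left out and 131 under the other alternatives. No member was called by limma under any of them or by edgeR or DESeq2. The sign turned for differences near 0 and for some larger ones, such as histidine precursors for genotype, at -0.265 points with all mice. Mature tRNA-His-GTG for genotype was -0.0380 points as a percentage of all reads. For silencing in 5xFAD mice it was -0.0128 without the 3 low mt-tRNA libraries, -0.15 on the log2 scale, -0.00325 with near-identical members counted once and -0.0219 without reads between the ends. For silencing in WT mice it was -0.00260 as a percentage of all reads. Histidine precursors without the 3 libraries were 0.110 points for genotype and 0.144 for silencing in WT mice, where the log2 value was 0.30. Their interaction was 0.304 on the percentage. The cause was not tested.

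Leaving out each mouse gave -0.0234 to 0.0460 points for mature histidine under silencing in 5xFAD mice, and for histidine precursors -0.385 to 0.110 for genotype and -0.231 to 0.269 for silencing in WT mice. Their interaction ran from -0.65 to 0.31, and changed sign when any of 7 mice was left out. For silencing in WT mice mature asparagine ran from -11.5 to 3.26 points and its precursors from -6.66 to 0.110, both highest without WT shCT mouse 5. The log2 precursor to mature ratio of histidine ran from -0.71 to 0.47. The interaction of mature asparagine ran from 1.52 to 3.19, the highest without WT shRTP801 mouse 4 (exact p = 0.0449). The 5′ share of asparagine end reads for genotype differed by 0.00376 to 0.00972 points, with 0.00939 without WT shCT mouse 15 (exact p = 0.0286).

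limma calls ran from 0 to 2 precursor families for genotype and from 0 to 1 loci for genotype and for silencing in WT mice, all without WT shCT mouse 15. DESeq2 called 1 mature family and 1 isodecoder for silencing in WT mice, and edgeR 1 mt-tRNA for genotype and 1 for silencing in 5xFAD mice. With the deposited scaling, the log2 difference of mature tRNA-His-GTG was -0.14 for genotype and 0.40 for silencing in 5xFAD mice. There the median over all mature families was -0.54 for genotype, against 0.23 in shares. For histidine precursors edgeR gave -0.30 and DESeq2 -0.27 for silencing in WT mice. Depth limits the low counts. The lowest histidine precursor share, 0.130% in 5xFAD shRTP801 mouse 14, rests on 81 reads (Wilson 95% interval 0.104% to 0.161%), the asparagine 5′ share on 1 to 32 reads and tRNA-His-GTG-1-1 on 0 to 7. No paired analysis was possible because the mouse numbers are unique and no number is shared between groups.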
